A study of Mus musculus with 36 samples.

Results

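The matrix metalloproteinases (MMPs) described here were 10 genes, Mmp2, Mmp3, Mmp9, Mmp11, Mmp12, Mmp13, Mmp14, Mmp16, Mmp19 and Mmp23, of 23636 mouse genes with at least 1 row of RNA-seq counts. For each gene the RefSeq transcript row with the highest mean count over the 12 RNA libraries was taken, and all 10 passed the filter on low counts in every comparison. Their loci, each the gene body with 5 kb (5000 bases) on both sides, held 964 CpG cytosines (counted by strand) that were covered by at least 10 reads in at least 1 oxidised (oxBS) library of the reduced representation oxidative bisulfite sequencing (RRoxBS). Articular cartilage had been dissected from the tibial and femoral surfaces of male C57BL/6J mice that were 12 weeks old at surgery. The meniscus of the right knee had been destabilised surgically (destabilisation of the medial meniscus, DMM), which leads to osteoarthritis over the following weeks, and the unoperated left knee of these mice was the control. Each assay had 3 control and 3 DMM libraries at each harvest, 4 and 12 weeks after surgery, and each library came from the pooled cartilage of 3 knees, with RNA and DNA taken from separate mice. No sham-operated or unoperated mice were included, so the control limb is that of an operated animal, and age, time after surgery and any sequencing batch went together with the week and cannot be told apart.

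MMPs are zinc-dependent proteases that cut the proteins of the extracellular matrix. They are made as inactive proenzymes, are activated by removal of a propeptide by furin-like convertases, plasmin or other MMPs, and are held in check by the tissue inhibitors of metalloproteinases (TIMPs). In cartilage, collagenases such as Mmp13 cut type II collagen, stromelysins such as Mmp3 cut proteoglycans and activate other MMPs, gelatinases (Mmp2, Mmp9) degrade cut collagen, and membrane-bound MMPs such as Mmp14 act at the cell surface, where Mmp14 activates the Mmp2 proenzyme.

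The RNA libraries held 27706547 to 62737656 counts, and levels are given as CPM, counts scaled to the TMM-normalised library size. Mmp3, Mmp2 and Mmp19 were higher in every DMM library than in every control library at both 4 and 12 weeks. At 12 weeks Mmp14 and Mmp23 also did not overlap between limbs, and none of the 10 was lower in DMM without overlap at either week. Among all genes, 10.8% lay above without overlap and 10.4% below at 4 weeks, and 9.92% and 8.42% did so at 12 weeks, against 3 and 0 of the 10 MMPs at 4 weeks and 5 and 0 at 12 weeks. In 3 against 3 libraries the exact two-sided permutation test can reach no p below 0.1. The edgeR quasi-likelihood test, adjusted over all transcript rows, called none of the 10 at either week, where it called 0.0757% of rows at 4 weeks (16 of 21140) and 0.00476% at 12 weeks (1 of 21010). At an unadjusted p under 0.05 the same test had 3 of the 10 MMPs and 2891 rows at 4 weeks, and 5 of the 10 and 3430 rows at 12 weeks. DESeq2, the tool used by the study, called Mmp2, Mmp3 and Mmp19 higher at both weeks, against 3.44% of rows at 4 weeks and 4.24% at 12 weeks.

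**Figure D1:**
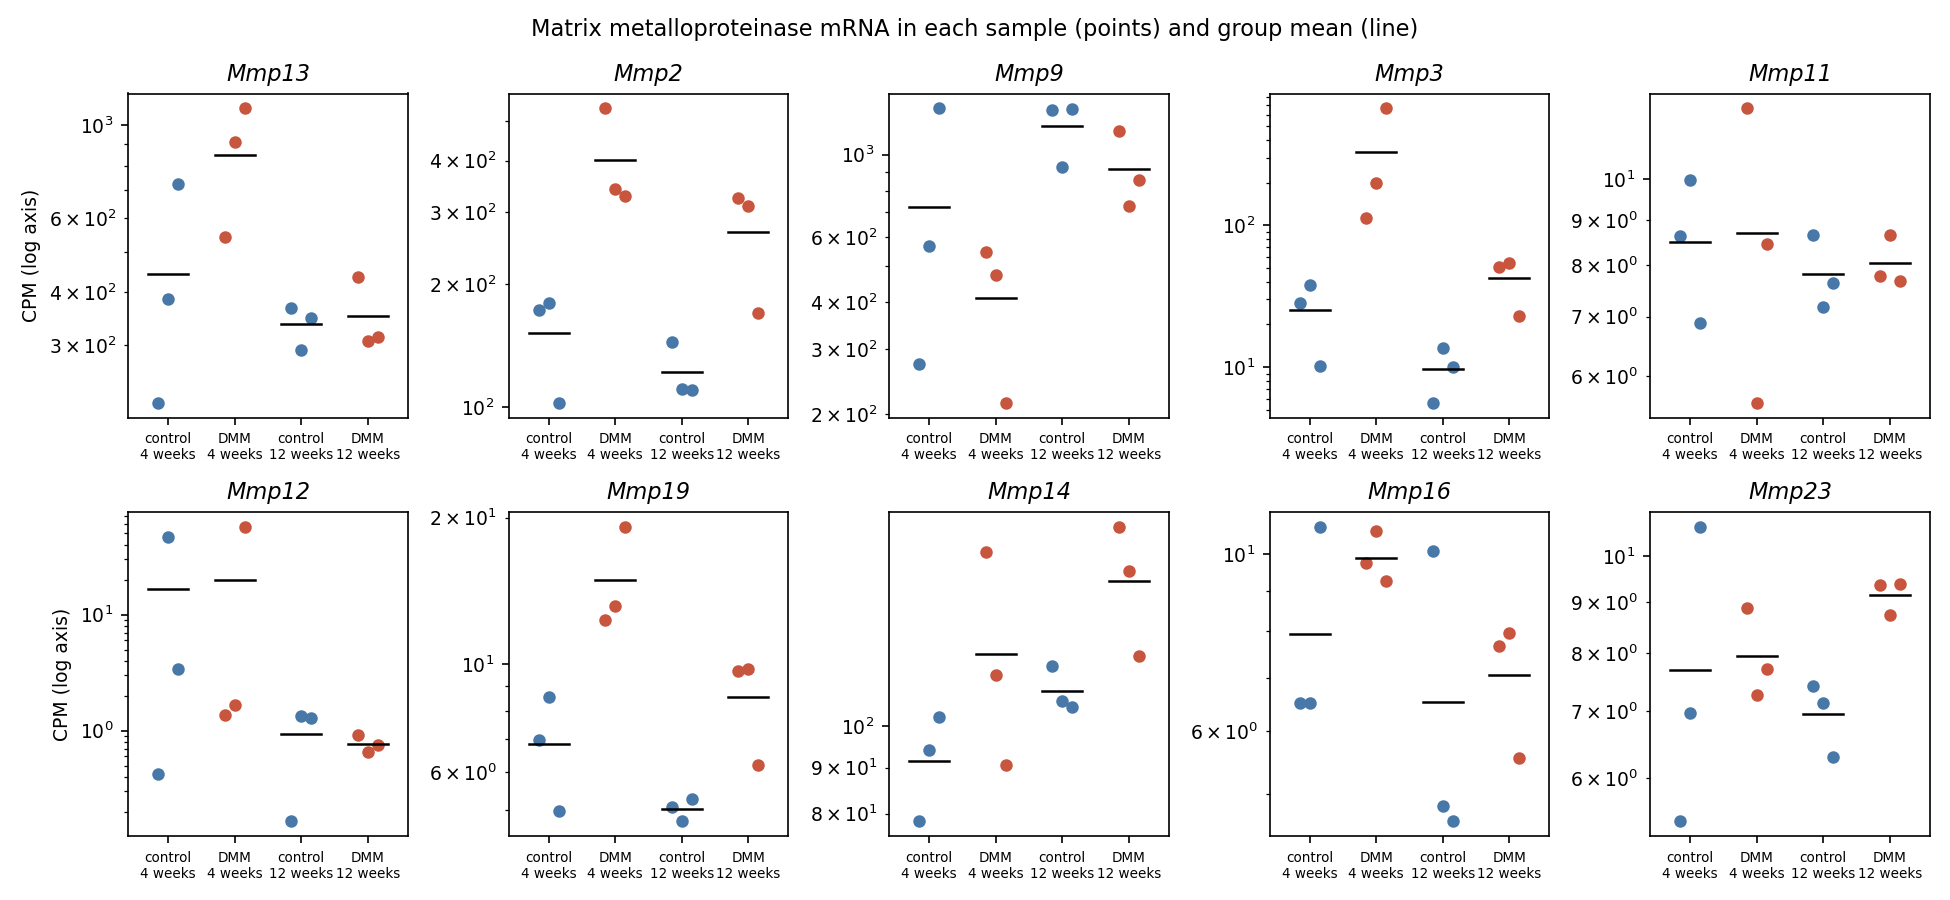
RNA level of each of the 10 MMPs in every library, in TMM-normalised CPM on a log axis, by limb and week; points are libraries (pools of 3 knees, 3 per group), the lines are group means, and each gene has its own axis range. Mmp3, Mmp2 and Mmp19 sit higher in every DMM library than in every control library at both weeks.

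Mmp3, stromelysin 1, showed the highest ratio of the 10 between limbs. Its 3 control libraries at 4 weeks had 28.2, 37.8 and 10.2 CPM and the 3 DMM libraries 113, 198 and 668.5 CPM. The lowest DMM library was well above the highest control library, and the DMM libraries themselves spread widely. The log2 change was 3.68 (SE 0.74, edgeR adjusted p = 0.203, DESeq2 adjusted p = 1.45e-06), and leaving out single libraries gave 2.62 to 4.08. At 12 weeks the control libraries had 5.59, 13.6 and 10.1 CPM and the DMM libraries 50.5, 54.5 and 22.9 CPM. The limbs were again apart, at a lower level in both. The log2 change was 2.13 (SE 0.43, edgeR adjusted p = 0.184, DESeq2 adjusted p = 8.5e-06). Mmp11, known as stromelysin 3, had log2 changes near 0, of 0.03 (SE 0.31) and 0.05 (SE 0.16) at 4 and 12 weeks and all libraries between 5.60 and 12.0 CPM.

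The gelatinases Mmp2 and Mmp9 had estimates of opposite sign. Mmp2 had 173, 179.7 and 102.6 CPM in the control and 537, 341 and 328 CPM in the DMM libraries at 4 weeks. At 12 weeks the control libraries had 144, 111 and 110.2 CPM and the DMM libraries 325, 310.5 and 169.7 CPM. The DMM libraries lay above all control libraries of their week, with DMM replicate 3 at 12 weeks closest to the control. The log2 changes were 1.41 (SE 0.31, edgeR adjusted p = 0.227, DESeq2 adjusted p = 0.00118) and 1.15 (SE 0.26, edgeR adjusted p = 0.211, DESeq2 adjusted p = 0.00221). Without that 12-week DMM library edgeR called Mmp2 higher (log2 change 1.40, adjusted p = 0.0372), and 102 of 21213 rows in place of 1 of 21010. Leaving out any other single library at 12 weeks gave no MMP call. Mmp9, which osteoclasts and neutrophils make in large amounts, had 273, 567 and 1333 CPM in the control and 546, 475 and 215 CPM in the DMM libraries at 4 weeks. Its 12-week levels were 1319, 928 and 1327 CPM in the control and 1154, 729 and 856 CPM in DMM. The limbs overlapped at both weeks, with log2 changes of −0.82 (SE 0.59, edgeR adjusted p = 0.499) and −0.37 (SE 0.25, adjusted p = 0.452). The 4-week difference rested on control replicate 3, since leaving out 1 library at a time moved it from −1.21 to −0.03.

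Mmp13, the main collagenase of mouse cartilage, was among the most abundant MMPs in both limbs. The 4-week control libraries held 218, 385 and 723 CPM and the DMM libraries 542, 910.1 and 1097 CPM, so that the highest control library lay above the lowest DMM library. At 12 weeks the control held 367, 292 and 348 CPM and DMM 436, 307 and 313 CPM, with the limbs intermixed. The log2 changes were 0.93 (SE 0.46, edgeR adjusted p = 0.391) and 0.08 (SE 0.20, adjusted p = 0.860). The 4-week value was 1.48 without control replicate 3 (adjusted p = 0.0776) and 0.61 without control replicate 1. Mmp19, a secreted MMP of the basement membrane and connective tissue, was at a low level. It had 6.98, 8.55 and 4.99 CPM in the control and 12.3, 13.1 and 19.2 CPM in DMM at 4 weeks, and 5.07, 4.75 and 5.27 CPM against 9.66, 9.76 and 6.21 CPM at 12 weeks. Both weeks were without overlap, with log2 changes of 1.12 (SE 0.27, edgeR adjusted p = 0.252, DESeq2 adjusted p = 0.0125) and 0.77 (SE 0.22, edgeR adjusted p = 0.224, DESeq2 adjusted p = 0.0486). A second Mmp19 transcript row held 194 to 614 counts per library and was not used.

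Mmp12, the macrophage elastase, was decided by single libraries. At 4 weeks its levels were 0.42, 46.2 and 3.42 CPM in the control and 1.37, 1.65 and 57.1 CPM in DMM. One library in each limb was therefore far above the others, and the log2 change of 0.25 had an SE of 1.66 (edgeR adjusted p = 0.950), fell to −3.45 without DMM replicate 3, and received no DESeq2 adjusted p. All 6 libraries at 12 weeks lay between 0.17 and 1.34 CPM.

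Of the members anchored in the membrane, Mmp14 and Mmp23 were apart between limbs at 12 weeks only. Mmp14 (MT1-MMP) had 78.5, 94.1 and 102 CPM in the control and 156, 114 and 90.5 CPM in the DMM libraries at 4 weeks, with overlap. At 12 weeks it had 117, 107 and 105 CPM in the control and 167, 149 and 119.7 CPM in DMM, where the lowest DMM library was just above the highest control library. The log2 changes were 0.39 (SE 0.25, edgeR adjusted p = 0.459) and 0.41 (SE 0.16, adjusted p = 0.278). The 4-week value was 0.14 without DMM replicate 1 and 0.57 without DMM replicate 3. Mmp23 was at 7.42, 7.14 and 6.31 CPM in the control and 9.36, 8.73 and 9.37 CPM in DMM at 12 weeks, a log2 change of 0.40 (SE 0.15, edgeR adjusted p = 0.278), after 0.04 (SE 0.29) at 4 weeks. Mmp16 (MT3-MMP) overlapped at both weeks, with log2 changes of 0.31 (SE 0.27, 0.18 to 0.60 with single libraries left out) and 0.12 (SE 0.33) and levels of 4.62 to 10.8 CPM in all libraries.

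**Figure D2:**
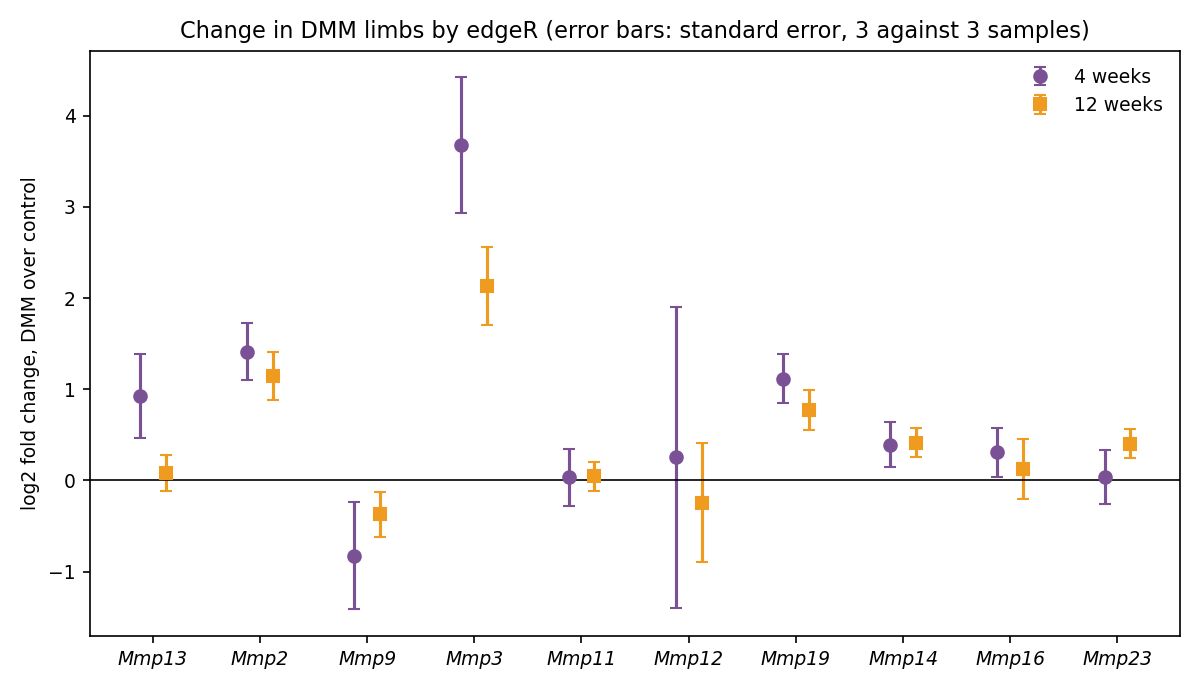
Log2 change of each MMP in DMM against control at 4 and 12 weeks from edgeR, with bars of 1 standard error. Mmp3 stands at 3.68 and 2.13 and Mmp2 at 1.41 and 1.15, while Mmp9 lies below 0 at both weeks.

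Over the 10 MMPs the median log2 change was 0.35 at 4 weeks and 0.26 at 12 weeks, with 9 and 8 of 10 above 0. The medians over all genes tested were −0.02 and 0.02. The 6 other MMPs that passed the filter had medians of −0.46 and 0.03, with 2 and 3 of the 6 above 0. Whether the effect of DMM differed between weeks was tested by the interaction of limb and week. It was called for no MMP by edgeR, which called 0% of 21618 rows (0 of the 10 MMPs and 2656 rows had an unadjusted p under 0.05), nor by DESeq2, which called 0.0613%. The interaction estimates furthest from 0 among the MMPs were −1.56 (SE 0.94, edgeR adjusted p = 0.465) for Mmp3 and −0.87 (SE 0.53, adjusted p = 0.467) for Mmp13.

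Between weeks, 3 MMPs fell in the DMM limb. Mmp3 fell by 2.94 on the log2 scale (SE 0.70, edgeR adjusted p = 0.0163), Mmp13 by 1.27 (SE 0.38, adjusted p = 0.0323) and Mmp19 by 0.80 (SE 0.25, adjusted p = 0.0387). DESeq2 called the same 3 and Mmp12 (log2 change −4.70, DESeq2 adjusted p = 0.013). The Mmp12 value rested on DMM replicate 3 at 4 weeks, without which the edgeR change went from −4.67 to −0.99 (adjusted p = 0.712). In this comparison 23.6% of all rows were called by edgeR and 29.1% by DESeq2, so 3 of 10 and 4 of 10 were shares close to the background. None of the 10 was called by edgeR when DMM replicate 3 of either week was left out, and Mmp3 alone was called without DMM replicate 2 at 4 weeks or DMM replicate 1 or 2 at 12 weeks. In the control limb edgeR and DESeq2 called none of the 10, where 5.69% and 13.9% of rows were called. Mmp3 had a log2 change of −1.38 there (SE 0.67, edgeR adjusted p = 0.228) and Mmp9 of 0.72 (SE 0.49, adjusted p = 0.378). Without control replicate 3 at 4 weeks Mmp9 was called higher at 12 weeks (1.48, adjusted p = 0.0245). That fit called 4685 of 21862 rows, in place of 1229 of 21618 with all libraries. In DMM the mean Mmp9 level was also higher at 12 weeks, at 913 against 412 CPM at 4 weeks. Mmp12 had −4.16 in the control (SE 1.86, edgeR adjusted p = 0.197, DESeq2 adjusted p = 0.0511), and −1.06 without control replicate 2 at 4 weeks. The comparisons in the control and in the DMM limb were not tested against each other other than by the interaction.

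Levels of the 10 MMPs were compared with each other per length of the counted transcript, as CPM per kb. Outside the 10, Mmp8 had 720, 511 and 951 CPM in the control and 547, 400 and 545 CPM in DMM at 12 weeks. That was more CPM than Mmp13 had in each of these libraries, and Mmp8 was not placed in the order below. Mmp9 had the highest mean level in the control at 4 weeks (228.1 CPM per kb), followed by Mmp13 (165.3), Mmp2 (49.4), Mmp14 (24.1) and Mmp3 (14.1). Across libraries Mmp9 and Mmp13 overlapped there, as did Mmp14 and Mmp3, while Mmp2 was separated from its neighbours. Within each of these control libraries, Mmp9, Mmp13, Mmp2 and Mmp14 were the first 4 in this order. In DMM at 4 weeks the order was Mmp13 (318), Mmp3 (181), Mmp2 (131) and Mmp9 (129.7), whose libraries all overlapped with those of the next in order, and Mmp14 (31.6) lay below them without overlap. Mmp13 was the highest within each of these DMM libraries. The second place of Mmp3 rested on DMM replicate 3, with 371 CPM per kb against 62.7 and 110.1 in the other two. Without that library its mean was 86.4 CPM per kb, and Mmp13, Mmp9 and Mmp2 lay above it, against the fifth place in the control. At 12 weeks the first 5 of the 10 in both limbs were Mmp9, Mmp13, Mmp2, Mmp14 and Mmp3. In this order the control had 375, 125, 39.6, 28.8 and 5.42 CPM per kb. DMM had 288, 132, 87.3, 38.2 and 23.7 CPM per kb. Each of these genes was separated from the next in order, except that Mmp3 overlapped with Mmp23 (4.85 CPM per kb) in the control. The remaining 5 MMPs were under 7 CPM per kb in all groups. Mmp3 made up 0.44 to 3.53% of the summed CPM of the 10 MMPs in the 4-week control libraries and 5.82 to 26.7% in the 4-week DMM libraries.

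Over the 12 libraries, the gene most like Mmp3 among 13357 genes was Mmp19 (Pearson r = 0.978 of log2 CPM), followed by Lum (r = 0.977), which encodes the matrix proteoglycan lumican, Ccdc68, Mfap4 and Tpmt (r = 0.967 to 0.968). Mmp13 was most like Ctsk (r = 0.989), the collagen-degrading cathepsin of osteoclasts, followed by Prkdc (r = 0.952), Ifit1, Hpgd and Myzap. For Mmp9 the most similar genes were Klhl25 (r = 0.977), Brpf3, B3gnt3, Dclk2 and Aff1. Mmp12, looked up after its 2 high libraries had been seen, was most like Arg1 (r = 0.976), Rnase2a, Ccl17, Ccl2 and Retnla, which are expressed by macrophages or eosinophils. These r values describe libraries that share limb, week and dissection, and were not tested.

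The other parts of the protease system were described from lists of genes. Of 13 other MMPs, 12 had a count row and 6 passed the filter, and none was called at either week by edgeR or DESeq2. The 2 with the lowest p were Mmp25 (log2 change −1.09, SE 0.48) and Mmp15 (−0.80, SE 0.34) at 4 weeks, and Mmp25 (−0.72, SE 0.26) and Mmp8 (−0.54, SE 0.26), the neutrophil collagenase, at 12 weeks. At 4 weeks Mmp15 (control 1.36, 1.91 and 1.97 CPM, DMM 1.11, 1.18 and 0.73 CPM) was lower in every DMM library. So was Mmp17 (0.82, 1.08 and 1.135 against 0.76, 0.54 and 0.27 CPM). At 12 weeks Mmp24 was higher in every DMM library (8.72, 11.95 and 9.24 against 12.06, 12.55 and 12.81 CPM). Among all genes, 10.4% lay below without overlap at 4 weeks and 9.92% above at 12 weeks. Of 9 activators of MMPs tested, none was called at 4 weeks, where Furin (log2 change −1.06, SE 0.42) and Klk8 (0.94, SE 0.42) had the lowest p. At 12 weeks DESeq2, and not edgeR, called 2 of the 9 higher, both convertases, where it called 4.24% of all rows. Pcsk6 had 20.9, 33.3 and 16.8 CPM in the control and 45.8, 59.8 and 44.0 CPM in DMM (log2 change 1.08, SE 0.25, DESeq2 adjusted p = 0.0062), and Furin changed by 0.80 (SE 0.21, DESeq2 adjusted p = 0.0267). Both were without overlap between limbs at 12 weeks. The median over the 9 activators was −0.20 at 4 weeks and 0.63 at 12 weeks.

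Of 9 inhibitors tested, DESeq2 called 1 higher and 1 lower at each week and edgeR none. Over all rows DESeq2 called 3.44% at 4 weeks and 4.24% at 12 weeks, in either direction. At 4 weeks Timp1 had 61.5, 79.6 and 39.3 CPM in the control and 93.2, 122.7 and 193 CPM in DMM (log2 change 1.18, SE 0.33, DESeq2 adjusted p = 0.0359). Timp4 had 17.5, 10.2 and 8.54 CPM in the control and 5.21, 3.74 and 4.06 CPM in DMM (log2 change −1.48, SE 0.32, DESeq2 adjusted p = 0.00138). The limbs did not overlap for either gene, in opposite directions. At 12 weeks Timp2, which also takes part in the activation of the Mmp2 proenzyme by Mmp14, had 173, 278 and 271 CPM in the control and 702, 565 and 307 CPM in DMM (log2 change 1.14, SE 0.33, DESeq2 adjusted p = 0.0161). A2m, which encodes the broad protease inhibitor alpha-2-macroglobulin, had a log2 change of −1.32 (SE 0.36, DESeq2 adjusted p = 0.0157). The median over the inhibitors was −0.27 at 4 weeks and 0.30 at 12 weeks.

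Among 21 upstream cytokines, receptors and transcription factors, DESeq2 called 1 higher at each week and edgeR none. DESeq2 called 3.44% of all rows at 4 weeks and 4.24% at 12 weeks, so 1 of 21 was near the background. The genes called were 1 at each week. They were Ddr2, a receptor for fibrillar collagen, at 4 weeks (log2 change 0.90, SE 0.24, DESeq2 adjusted p = 0.0326) and Fosl1, a subunit of the AP-1 factor, at 12 weeks (1.53, SE 0.33, DESeq2 adjusted p = 0.00363). Fosl1 was low, with 0.59, 1.10 and 1.03 CPM in the control and 2.47, 3.22 and 2.18 CPM in DMM. The list medians were −0.35 and 0.29. Of 19 matrix substrates, DESeq2 called Lama4 (0.75, SE 0.18, DESeq2 adjusted p = 0.00863) and Bgn (0.78, SE 0.25, DESeq2 adjusted p = 0.0332) higher at 4 weeks, against 3.44% of all rows. At 12 weeks it called Col3a1 (2.29, SE 0.41, DESeq2 adjusted p = 1.92e-07), Fn1 (0.98, SE 0.22, DESeq2 adjusted p = 0.000176), Comp (1.004, SE 0.28, DESeq2 adjusted p = 0.00998) and Bgn (0.70, SE 0.19, DESeq2 adjusted p = 0.0157) higher, against 4.24% of all rows. The substrate medians were 0.21 and 0.68.

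**Figure D3:**
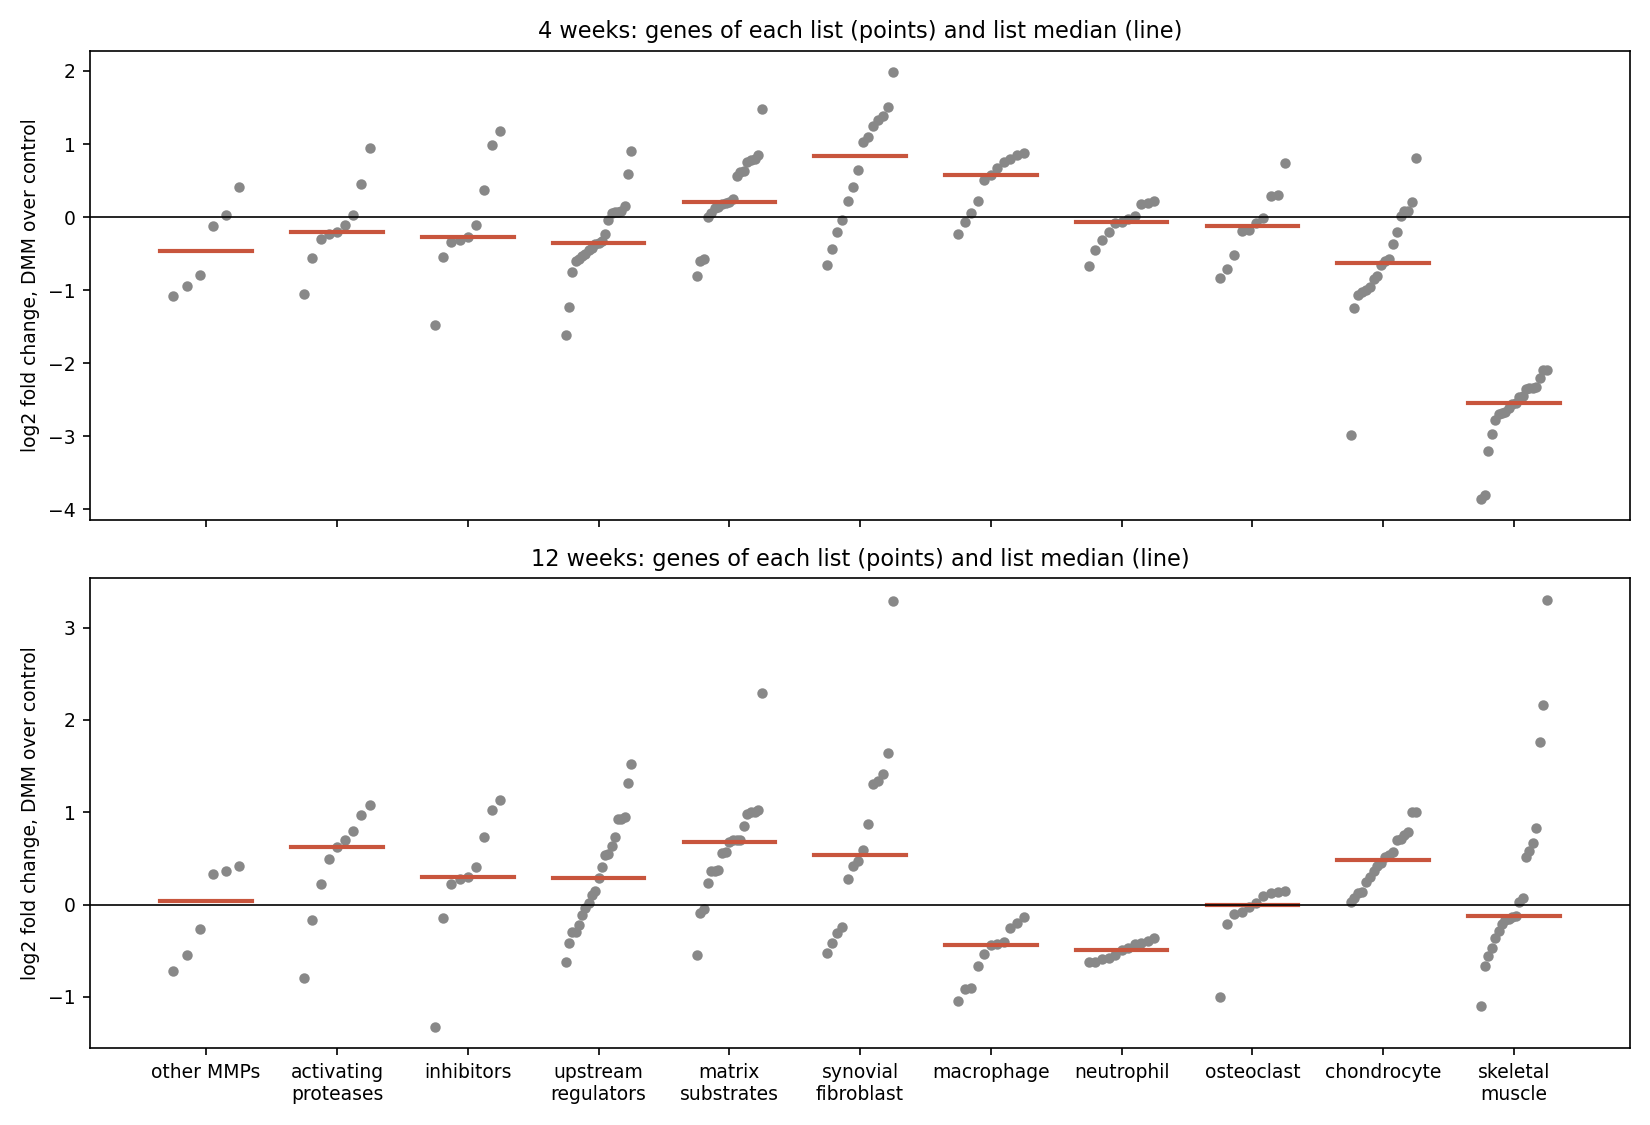
Log2 change in DMM against control (edgeR, vertical axis) of every tested gene of the other MMPs, the activators, inhibitors, upstream regulators and substrates and of 6 cell type marker lists, at 4 weeks (top) and 12 weeks (bottom); each point is a gene and the line is the list median. The activator median is −0.20 at 4 weeks and 0.63 at 12 weeks, and all 20 muscle markers lie below 0 at 4 weeks.

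Markers of other cell types were present in these libraries, and some lists differed between limbs. The 20 skeletal muscle markers were all below 0 at 4 weeks (median log2 change −2.55), of which edgeR called 1 lower and DESeq2 15, against the 0.0757% and 3.44% of rows called in either direction, and their summed level was 7424 to 28270 CPM in the control and 789 to 4530 CPM in the DMM libraries. At 12 weeks their sums were 146 to 18470 and 861 to 15150 CPM. With the muscle genes left out of the fit, the Mmp3 change at 4 weeks was 3.68 and the Mmp2 change 1.40. That fit drops only the muscle rows and keeps the MMP counts as they were. It therefore cannot show what muscle tissue does to the MMP levels. Of 14 synovial fibroblast markers, the cells that line the joint and are known to make Mmp3, 10 were above 0 and 4 below at both weeks. Of these 14, edgeR called none and DESeq2 called 6 higher at 4 weeks and 7 at 12 weeks and none lower (background 3.44% and 4.24%), with median log2 changes of 0.83 and 0.53. The mean log2 CPM of the 14 was higher in every DMM library than in every control library, at 6.63 to 6.95 against 5.63 to 6.41 at 4 weeks and 5.84 to 6.17 against 5.38 to 5.44 at 12 weeks, as were the levels of Mmp3, Mmp2 and Mmp19. The list sums, of 7668 to 15200 CPM in the control against 7074 to 9715 CPM in DMM at 4 weeks and 6637 to 17770 against 11070 to 18170 CPM at 12 weeks, were mostly those of Prg4, the lubricin gene, which superficial chondrocytes also express (6476 to 13770 CPM in the 4-week control). Neutrophil markers summed to 9239 to 43950 CPM over the 12 libraries, and 0 of 11 were above 0 at 12 weeks, as were 0 of 11 macrophage markers, which had 9 of 11 above 0 at 4 weeks. Of 18 chondrocyte markers, 5 were above 0 at 4 weeks and 18 at 12 weeks (list sums of 11570 to 41050 CPM), and of 12 hypertrophic chondrocyte markers 8 were above 0 at 4 weeks and 12 at 12 weeks. The hypertrophic sums were 8090 to 11680 CPM in the control and 14600 to 16400 CPM in DMM at 4 weeks, while their mean log2 CPM overlapped (7.00 to 7.36 against 6.86 to 7.46), and at 12 weeks the sums were 6294 to 9446 against 11200 to 14990 CPM. Osteoblast and osteocyte markers summed to 6576 to 7306 CPM in the control and 8767 to 11180 CPM in DMM at 4 weeks, without overlap, where Ibsp, the bone sialoprotein gene, made up 2236 to 4147 and 5459 to 6339 CPM and the mean log2 CPM of the list overlapped (6.93 to 7.02 against 6.95 to 7.36), and to 6273 to 11910 against 9973 to 12080 CPM at 12 weeks, with overlap. The 10 osteoclast markers summed to 784 to 2012 against 1332 to 1818 CPM at 4 weeks and 980.5 to 1313 against 1010 to 1428 CPM at 12 weeks, and overlapped at both. Markers of muscle, synovium, neutrophils and bone were thus present beside those of cartilage in tissue labelled as cartilage. The part of these cells in the MMP levels was not tested, and in pooled tissue more cells of a type and more RNA per cell cannot be told apart.

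Mmp3, Mmp12 and Mmp13 lie together on chromosome 9, with Mmp13 at chr9:7272514-7283333, Mmp12 at chr9:7344397-7360461 and Mmp3 at chr9:7445822-7455975 (GRCm38, all on the plus strand). The 250 bases before 1 start of each are shown because these 3 were the MMPs with a promoter window that held the AP-1 letters TGAGTCA, or TGACTCA on the other strand, among the 6 MMPs with a promoter entry in the RefSeq table (Mmp3, Mmp11, Mmp12, Mmp13, Mmp14 and Mmp23). AP-1, a dimer of Fos and Jun proteins, is known to drive several MMP genes. The letters were found in 4.46% of 32851 promoter windows of the same length. They are in capitals, and begin 46, 35 and 44 bases before the start of Mmp3, Mmp13 and Mmp12. The table has a pair of starts for Mmp12, and the window shown belongs to the inner one, at chr9:7347374. The window before the outer start, at chr9:7344397, held the letters 0 times.
Mmp3, chr9:7445572-7445821: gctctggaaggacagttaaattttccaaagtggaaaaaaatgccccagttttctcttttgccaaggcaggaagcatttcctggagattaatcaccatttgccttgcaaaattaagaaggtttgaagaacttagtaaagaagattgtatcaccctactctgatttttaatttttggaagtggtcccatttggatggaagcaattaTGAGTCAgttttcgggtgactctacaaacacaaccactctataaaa
Mmp13, chr9:7272264-7272513: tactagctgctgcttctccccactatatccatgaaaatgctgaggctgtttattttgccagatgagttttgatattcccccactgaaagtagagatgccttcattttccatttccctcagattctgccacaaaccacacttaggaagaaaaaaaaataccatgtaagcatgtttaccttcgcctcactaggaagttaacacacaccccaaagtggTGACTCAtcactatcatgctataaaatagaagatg
Mmp12, chr9:7347124-7347373: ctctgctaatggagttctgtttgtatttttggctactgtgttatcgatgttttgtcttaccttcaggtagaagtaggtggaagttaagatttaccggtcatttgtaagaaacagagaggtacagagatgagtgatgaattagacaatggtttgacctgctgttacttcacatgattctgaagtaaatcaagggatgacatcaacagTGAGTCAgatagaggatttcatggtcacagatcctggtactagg

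DNA methylation was read from the oxBS libraries, in which only 5-methylcytosine (5mC) remains as C, and 5-hydroxymethylcytosine (5hmC) from the difference between the BS and oxBS libraries of the same group and replicate number. For the 12-week DMM replicate 1 BS library the title gives the number 1 and the name of the deposited data the number 2, so that its match with an oxBS library is in doubt, and 12-week 5hmC is also given with the BS libraries of DMM replicates 1 and 2 exchanged. The oxBS libraries held 1463899 to 2185950 cytosines with a median coverage of 22 to 102 reads. Coverage of the MMP loci was uneven. The locus of Mmp12 had no covered cytosine. Those of Mmp3 and Mmp13 had 2 tested cytosines each, and the other 7 had 42 (Mmp16) to 147 (Mmp14) at 12 weeks. Several loci also contained other genes, such as Mrpl52 at Mmp14, Lpcat2 at Mmp2, Slc12a5 at Mmp9, Smarcb1 at Mmp11 and Mib2 at Mmp23, so that a cytosine of a locus may lie in a neighbouring gene.

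Single cytosines were tested on reads pooled by limb, and called where the limbs differed by 25 points of 5mC or more with a genome-wide q under 0.05. No MMP cytosine of 691 tested was called at 4 weeks, where the background was 0.000554% of 1444973 cytosines (8 called). At 12 weeks 4 of 628 were called, all lower in DMM and all at Mmp14, against 0.227% of 1273121 cytosines genome-wide. Every DMM library was below every control library at 24 of the 691 MMP cytosines at 4 weeks (3.47%, background 3.74%) and above at 12 (background 2.39%). At 12 weeks this held for 48 of the 628 below (7.64%, background 5.57%) and 8 above (background 2.54%). Of those 48, 30 were at Mmp14, which is 20.4% of its 147 tested cytosines, and 104 of the 147 had a lower pooled 5mC in DMM. Mmp16 had 5 of 42 below, Mmp23 6 of 107, Mmp9 3 of 55, Mmp2 2 of 85, Mmp19 1 of 55 and Mmp11 0 of 133.

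The 4 called cytosines at Mmp14 lay between 12255 and 12423 bases downstream of its start (chr14:54431598-54442456, plus strand), past the annotated end of the gene in sequence with no annotated gene. At position 54443853 of chromosome 14 the control libraries had 43.9, 37.8 and 54.9% 5mC and the DMM libraries 20.95, 16.7 and 24.3%, with 37 to 105 reads per library. The pooled levels were 45.9% and 20.7%, a difference of −25.2 points (q = 0.000171). The other three, at 54443866, 54443880 and 54444021, differed by −26.2, −25.5 and −25.7 points (q = 0.000117, 0.000114 and 0.00713). All 4 had every DMM library below every control library. Neighbouring cytosines share reads and are not independent, and reads were the units of this test. With a correction for overdispersion between libraries, 2 of the 4 were called and 2 were not (q = 0.395 and 0.47). Without control replicate 3 none was called, with differences of −20.7 to −22.6 points, short of 25, and q of 0.0124 to 0.163. The run of tested cytosines around them is shown because it carried the only called positions, with the tested CpGs in capitals.
Mmp14 downstream, chr14:54443843-54444077: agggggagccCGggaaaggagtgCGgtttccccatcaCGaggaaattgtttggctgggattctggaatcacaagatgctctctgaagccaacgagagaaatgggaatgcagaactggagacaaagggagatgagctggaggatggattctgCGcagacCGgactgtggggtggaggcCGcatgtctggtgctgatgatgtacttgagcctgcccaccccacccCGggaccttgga
Mmp14 intron, chr14:54433896-54434118: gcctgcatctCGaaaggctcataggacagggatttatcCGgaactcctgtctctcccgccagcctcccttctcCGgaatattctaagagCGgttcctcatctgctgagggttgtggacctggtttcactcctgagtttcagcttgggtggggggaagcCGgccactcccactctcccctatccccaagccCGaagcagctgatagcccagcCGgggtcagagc

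The second sequence is part of an intronic run of Mmp14 cytosines. Both runs were chosen after their values had been seen, as those more than 1 kb from the start with the most cytosines below, so their means are given without a test. Over the 9 cytosines of the downstream run the control libraries had 44.2, 38.7 and 59.3% 5mC and the DMM libraries 24.7, 24.2 and 32.4% at 12 weeks. At 4 weeks these were 45.9, 21.4 and 34.5% in the control and 29.2, 18.3 and 19.8% in DMM, with control replicate 2 among the DMM values. The intronic run of 19 cytosines had 28.2, 28.3 and 29.0% in the control and 16.9, 18.6 and 21.6% in DMM at 12 weeks, and 27.0, 14.4 and 23.6% against 19.6, 14.5 and 13.8% at 4 weeks. The same control library was thus low at both runs. Without it, 5 Mmp14 cytosines were called at 4 weeks, when 3038 were called genome-wide in place of 8.

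**Figure D4:**
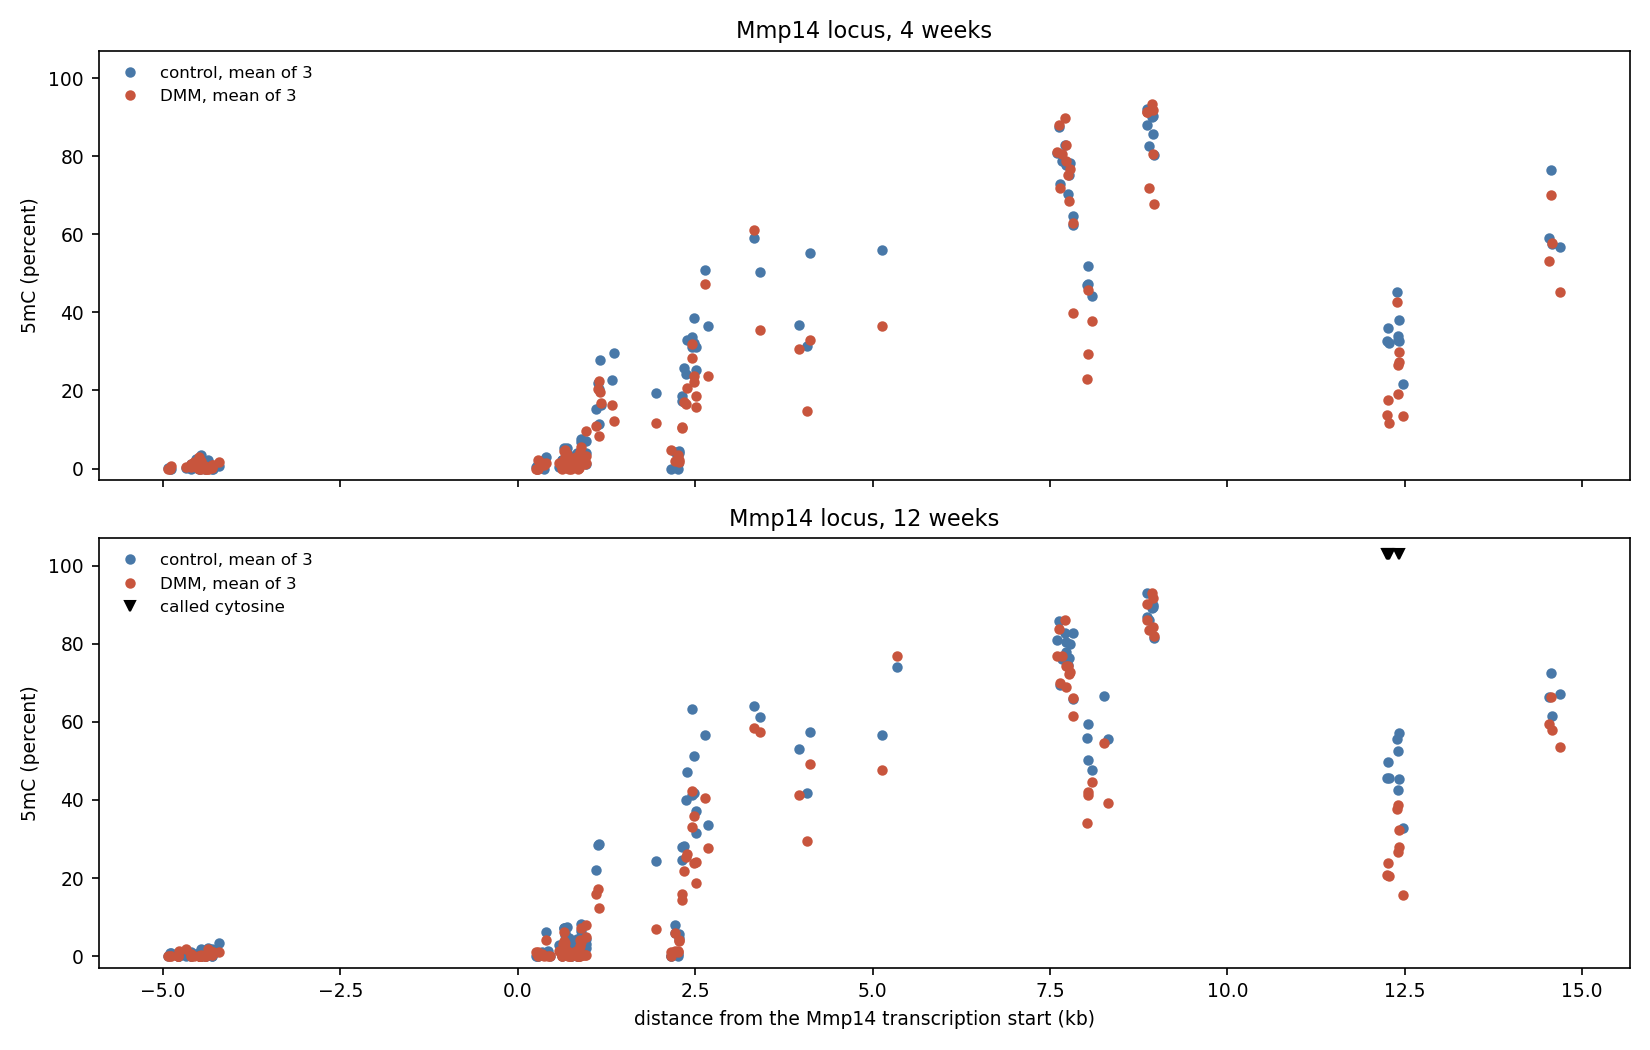
Mean 5mC of the control and DMM libraries at each tested cytosine of the Mmp14 locus at 4 and 12 weeks, against the distance from the gene's start in kb. Levels near the start are low in both limbs, and the 4 cytosines called at 12 weeks lie past the gene's end.

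At 4 weeks the 3 MMP cytosines with the lowest p among those without overlap were named, and none passed the threshold. Of these, 2 were intronic at Mmp14, at 54439630 (−17.9 points, q = 0.338) and 54439613 (−18.1 points, q = 0.48). The other was exonic at Mmp11, at position 75926617 of chromosome 10 (−10.7 points, q = 0.394).

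The 2 tested cytosines of Mmp3 lay in its first 250 bases, in an exon and an intron, and are shown with the CpG in capitals because they were the only positions tested at the gene with the highest RNA ratio.
Mmp3 exon, chr9:7445905-7445930: tgaagggtcttcCGgtcctgctgtgg
Mmp3 intron, chr9:7446055-7446080: gcattccacagcCGggttctgactgc
Their mean 5mC at 12 weeks was 46.5, 53.6 and 60.4% in the control and 32.1, 43.1 and 42.2% in the DMM libraries, without overlap (exact two-sided permutation p = 0.1). At 4 weeks it was 43.1, 30.8 and 32.8% in the control and 35.9, 35.5 and 29.0% in DMM, with overlap. Neither cytosine was called, with q = 0.452 and 0.568 at 12 weeks. The 2 Mmp13 cytosines, both intronic, overlapped at both weeks, with means of 53.2% ± 3.05 (SD, n = 3) in the control and 49.0% ± 5.88 in DMM at 12 weeks.

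Over whole loci, mean 5mC was compared at cytosines covered in all 12 oxBS libraries. Mmp14 (136 cytosines) had 26.04, 25.4 and 27.2% in the control and 20.4, 21.5 and 22.4% in the DMM libraries at 12 weeks. The limbs were well apart, by −4.78 points (26.2% ± 0.94 against 21.4% ± 0.96, SD, n = 3, exact two-sided permutation p = 0.1). Of 12014 gene loci with at least 40 cytosines, 162 (1.35%) had a difference as low. Mean 5mC over all 1212709 covered cytosines was 29.2, 29.0 and 29.6% in the control and 28.03, 28.7 and 28.2% in DMM. The covered cytosines as a whole were thus also lower, by less. At 4 weeks Mmp14 had 26.1, 19.6 and 24.1% in the control and 21.9, 19.1 and 19.2% in DMM, a difference of −3.18 points with overlap (exact permutation p = 0.2). It was −5.01 points without control replicate 2 and −4.11 points without DMM replicate 1, both without overlap, and −1.76 points without control replicate 1. Mmp16 was lower without overlap at 12 weeks by 1.27 points (28.6% ± 0.47 against 27.3% ± 0.60). At the 34 of its cytosines that each library covered by 20 reads or more, the difference was −0.12 points with overlap, and with reads pooled over the locus it was −1.69 points with overlap, while Mmp14 stayed without overlap under both (−3.86 and −5.40 points). The other loci with 5 or more cytosines, Mmp2, Mmp9, Mmp11, Mmp19 and Mmp23, overlapped at both weeks, with differences of −1.69 to 0.65 points. Thus 2 of 7 such MMP loci, Mmp16 among them, were below at 12 weeks and 0 above, where 25.9% of 19566 gene loci were below and 4.19% above, a share of MMP loci near the background. None was above or below at 4 weeks, where 6.32% of loci were below and 2.18% above.

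Within 1 kb of the start, Mmp2, Mmp11, Mmp14, Mmp16 and Mmp23 had mean 5mC of 0.65 to 4.92% in every library of both limbs. Mmp9, with 5 cytosines there, had 28.7 to 38.7%. At Mmp14 the difference therefore lay outside the start region, where the 91 remaining cytosines had 37.9, 36.5 and 39.4% in the control and 29.9, 31.1 and 32.8% in DMM at 12 weeks.

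**Figure D5:**
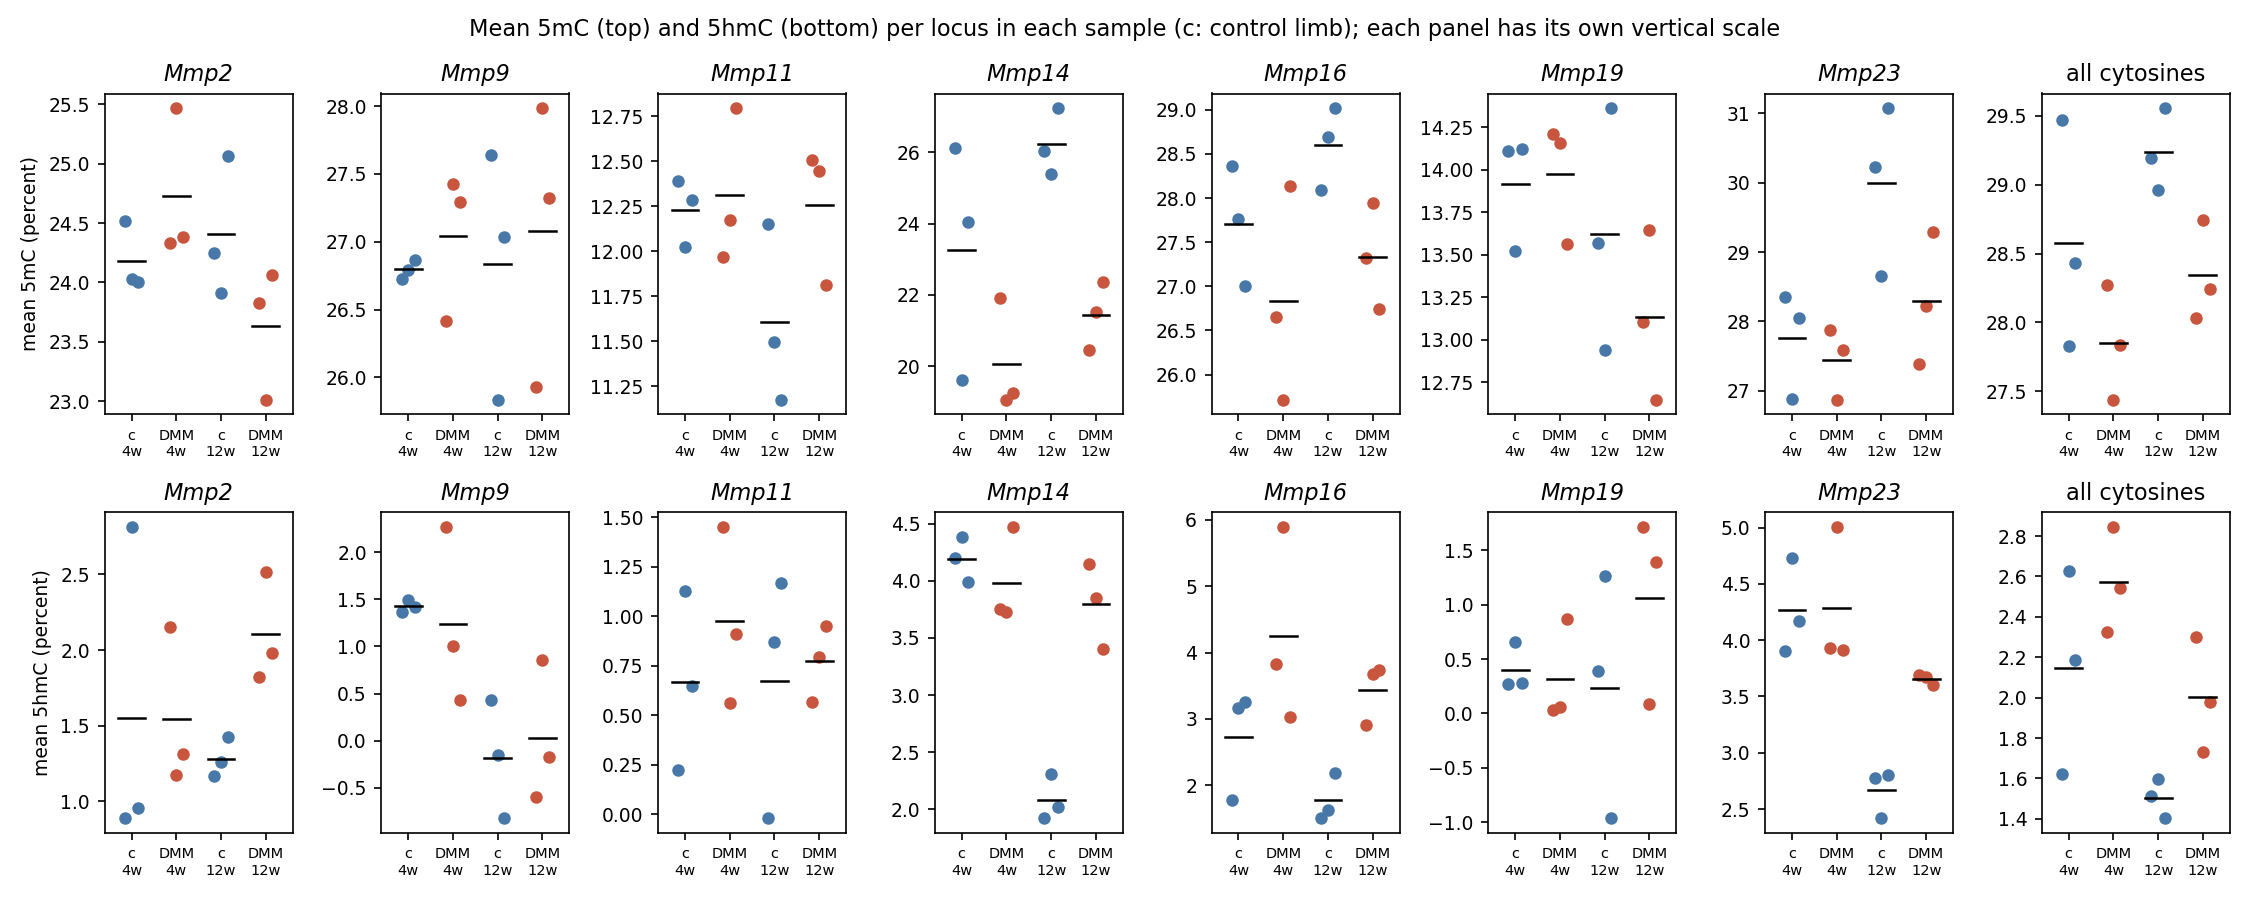
Mean 5mC and mean 5hmC of 7 MMP loci and of all cytosines in every library, in percent, by limb (c, control) and week; points are libraries, lines are means, and each panel has its own scale. Mmp14 5mC at 12 weeks is 25.4 to 27.2% in the control and 20.4 to 22.4% in DMM, and its 5hmC is higher in the DMM libraries at 12 weeks, and overlaps at 4 weeks.

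The second mark, 5hmC, was low at all loci with 5 or more cytosines. At 12 weeks Mmp14 had 1.92, 2.31 and 2.02% in the control and 4.14, 3.85 and 3.40% in DMM (difference 1.71 points, exact two-sided permutation p = 0.1). Mmp16 had 1.505, 1.62 and 2.19% against 2.91, 3.68 and 3.73%. Mmp23 (2.67% ± 0.21 against 3.66% ± 0.05) and Mmp2 (1.28% ± 0.13 against 2.11% ± 0.36) were also higher in DMM without overlap. So 4 of the 7 MMP loci were above and 0 below, where 11.9% of 19300 gene loci were above and 2.4% below. Of 11430 gene loci with at least 40 cytosines, 5.06% had a difference as high as Mmp14 and 5.43% as high as Mmp16. For Mmp23 and Mmp2 these shares were 15.2% and 19.8%. These differences weighted every cytosine equally. With the reads pooled over the locus, Mmp14 alone of the 4 was without overlap (difference 2.50 points), Mmp16 (1.52 points) and Mmp23 (0.26 points) overlapped, and the Mmp2 difference turned to −1.53 points with overlap. With the pair of BS libraries exchanged, Mmp14 had 4.15 and 3.85% in DMM replicates 1 and 2 and Mmp23 had 4.67 and 2.70%, so that Mmp23 overlapped with the control while Mmp2, Mmp14 and Mmp16 did not. The mean over all cytosines moved the same way, from 1.51, 1.60 and 1.40% in the control to 2.30, 1.73 and 1.98% in DMM. At 4 weeks none of the MMP loci was above (background 6.78%) or below (background 2.35%). Control and DMM means were then 4.19 and 3.98% at Mmp14, 4.27 and 4.28% at Mmp23, 2.73 and 4.25% at Mmp16, and 1.553 and 1.548% at Mmp2. The control means of these loci were thus lower at 12 weeks than at 4 weeks, which was not tested. As differences of 2 libraries, these values carry the error of both, and Mmp9 had values down to −0.82%.

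Among the 12-week oxBS libraries, control replicate 2 and DMM replicate 1 had a lower share of C over all reads (25.1 and 24.8%) than the other 4 (29.9 to 32.0%). With 1 of these libraries in each limb, the Mmp14 difference without both was −4.70 points for 5mC and 1.65 points for 5hmC, close to the values with them. For the other loci, the processing alternatives give only the counts of loci without overlap when both are left out.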

How the data were processed

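Libraries were grouped by limb and week from their labels, 3 per group. Per the labels and the study's methods, the authors trimmed RNA reads, aligned them to mm10 (GRCm38) with STAR and deposited raw counts per RefSeq transcript from featureCounts, with base calling by CASAVA 2.17 in the submitters' processing notes. For RRoxBS, the authors called CpG cytosines with Bismark (named in the same notes) and deposited the read coverage and the percentage of C per cytosine and strand, with a lowest coverage of 10 reads. Reads with C were recovered as coverage times percentage.

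The members and all gene lists were chosen with earlier results of these data known. Counts of all transcript rows were tested with edgeR 4.0.16 (R 4.3.3), with TMM, filterByExpr and a robust quasi-likelihood fit, and Benjamini-Hochberg adjusted over all rows tested, called under 0.05. DESeq2 1.42.0 was the alternative. The SE of an edgeR change was derived from its test, as the absolute change divided by the square root of the quasi-likelihood F statistic. The DMM effect was fitted within each week, and the interaction and the week contrasts over all 12 libraries. Cytosines that had 10 reads or more in each of the 6 oxBS libraries of a week were tested by pooling the reads of a limb and comparing logistic models with and without the limb (likelihood ratio). Means per locus, and 5hmC as BS minus oxBS, were compared between libraries by the exact two-sided permutation test (SciPy 1.17.1). The likeness of genes used rows with a mean of at least 50 counts. All MMPs are named, as are the called cytosines (where fewer than 3 were called, the 3 with the lowest p among those without overlap), up to 4 called genes per pathway list and week by lowest p, otherwise the 2 with the lowest p, and the 5 genes most like Mmp3, Mmp13 and Mmp9. Marker lists are given by counts and sums. The tests were tried on simulated data with known changes. All 964 of 964 MMP cytosines were CpG in the GRCm38 reference, from which the sequences were read, with promoters from RefSeq. The labels and the methods describe different RNA library kits. P-values of the RNA tests and of the locus means rest on the spread between pools of 3 knees. Those of single cytosines took reads as the units and do not measure that spread, except with the overdispersion correction. Coverage sets only the counting error of a percentage.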

Additional observations from a re-analysis of the deposited data

How the results depend on the processing

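In the RNA comparison of limbs, 0 of 10 MMPs were called at either week by edgeR, and 3 at both weeks by DESeq2 (Mmp2, Mmp3 and Mmp19). The knees were those of the same mice, but no source ties the replicate numbers of the limbs to the same pools, and same-numbered libraries correlated in their deviations at 0.389, −0.416 and 0.103 at 4 weeks and −0.606, 0.424 and −0.265 at 12 weeks. With the replicate number as a block (replicate block), edgeR called 1 MMP at each week, Mmp2 (adjusted p = 0.0397 and 0.0352), and 354 and 734 rows in all, in place of 16 and 1. Among the other MMPs it called Mmp25 lower at 12 weeks (adjusted p = 0.0422). Leaving out 1 library at a time gave 0 to 1 MMPs at 12 weeks, 0 to 1 between weeks in the control and 0 to 4 between weeks in DMM (3 with all libraries). Over all rows the same fits called 0 to 860 at 12 weeks, 37 to 4685 between weeks in the control and 1682 to 6396 in DMM. The other normalisations and filters did not move the 5 counts of called MMPs by over 1.5 times.

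At 12 weeks 4 MMP cytosines were called, 2 with the overdispersion correction, 2 by unweighted library means, 8 at 20 points and 0 to 8 with 1 library left out. At 4 weeks the last range was 0 to 5. Over all cytosines tested, leaving out 1 library called 1641 to 5722 at 12 weeks and 5 to 3038 at 4 weeks. Of 9 loci with covered cytosines, mean 5mC did not overlap at 0 at 4 weeks (0 to 2 with 1 library left out) and at 3 at 12 weeks (3 to 7), where there was 1 of the 8 loci that had cytosines with at least 20 reads in each library (Mmp14; Mmp3 had no such cytosine), 2 with reads pooled over the locus (Mmp3 and Mmp14), and 5 without control replicate 2 and DMM replicate 1, an alternative added after seeing the data. For 5hmC there were 0 at 4 weeks (0 to 3 with 1 library left out, and 1 with reads pooled over the locus) and 4 at 12 weeks. With pooled reads there were 2 (Mmp14 and Mmp19) and the Mmp2 difference turned from 0.82 to −1.526 points, and with the BS libraries of DMM replicates 1 and 2 exchanged, also added after seeing the data, there were 3. Without control replicate 2 and DMM replicate 1, 4 loci were above and 1 below for 5hmC. With fewer libraries the limbs separate more easily. The shares over all gene loci were taken for 3 against 3 libraries only, so counts with libraries left out cannot be set against them.

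None of the RNA changes whose direction turned was called. Leaving out 1 library moved the 4-week change of Mmp11 from −0.29 to 0.28, of Mmp12 from −3.45 to 3.35 and of Mmp23 from −0.16 to 0.35. At 12 weeks it moved Mmp11 from −0.048 to 0.10, Mmp12 from −0.76 to 0.095, Mmp13 from −0.12 to 0.18 and Mmp16 from −0.091 to 0.56. For the interaction the ranges were −0.38 to 0.84 for Mmp9, −0.23 to 0.32 for Mmp11, −3.62 to 3.21 for Mmp12, −0.15 to 0.25 for Mmp14 and −0.51 to 0.26 for Mmp16. Between weeks in the control they were −0.28 to 0.011 for Mmp11, −0.75 to 0.13 for Mmp13 and −0.37 to 0.14 for Mmp23, and in DMM −0.39 to 0.20 for Mmp11. The replicate block gave −0.018 for Mmp11 at 4 weeks and 0.058 for Mmp12 at 12 weeks, and the Mmp11 interaction was −0.00 by DESeq2, −0.00 with median-of-ratios factors and −0.002 with no filter on low counts. The cause of these differences was not tested.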
